A study of Astragalus chrysochlorus with 2 samples.

Results

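The cell wall proteins and wall-modifying enzymes described here are 6 unigenes of the 82566 in the deposited table of Astragalus chrysochlorus callus. They are an extensin-like protein (CL3965.Contig1_All), a leucine-rich repeat extensin-like protein 3 (Unigene30717_All), a pectinesterase (Unigene14810_All), a cellulose synthase A (Unigene33365_All), a polygalacturonase At1g48100-like protein (CL10308.Contig1_All) and a beta-galactosidase (CL10015.Contig1_All), with identifiers cut below before their common ending. A unigene is a transcript sequence assembled from the reads without a genome, and its name is that of the best protein match in another species. The 6 were picked by name from the study's list of differentially expressed unigenes, which holds only unigenes past a threshold in these same libraries. Their differences between the libraries are therefore a description, and nothing is tested on them.

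Callus, an undifferentiated tissue culture, was grown on MS medium with 0.5 mg/L of the synthetic auxin 2,4-D in both conditions. For the Se-treated callus this medium held sodium selenate at 5 mg/L over 3 weeks, and for the Control callus none. Cultures were kept in triplicate, the sources used here do not say whether the triplicates were pooled, and there is 1 library per condition. No spread between cultures can be given, so none of the differences below has a replicate check, and the callus label was not checked against marker genes because only called unigenes carry a name. Both libraries were of nearly equal depth. The Se-treated library held 0.998 times the counted fragments of the Control library, and the median unigene had 21 fragments in the Se-treated and 22 in the Control library.

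The primary wall of a growing plant cell is a network of cellulose microfibrils embedded in hemicelluloses and pectins, with a smaller part of structural glycoproteins. Cellulose synthase complexes in the plasma membrane spin out the microfibrils. Extensins are hydroxyproline-rich glycoproteins that are cross-linked into the wall, where they are known for stiffening it and for accumulating after wounding and in cultured cells. Pectin is secreted in a methyl-esterified form. Pectinesterases remove the methyl groups, which allows calcium to bridge the chains and also opens them to polygalacturonases, which cut the backbone. Beta-galactosidases trim galactose from the side chains.

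Each value is given as fragments, the read pairs counted for a unigene, and as FPKM, which scales fragments by unigene length and library total so that levels can be compared between unigenes. Differences are log2 ratios, with Se-treated FPKM on top. All intervals are exact at 95% and speak of counting error alone, because 1 library per condition gives no spread between cultures. They treat fragments as independent molecules, which copies made by PCR are not, so they may be too narrow. A unigene counted as called when its log2 ratio was 2 or more in size and its false discovery rate, or FDR, no more than 0.001 in a two-sided Audic-Claverie test, which compares the 2 libraries and not the conditions. By this rule 1.59% of all unigenes were called higher in the Se-treated library (1311) and 1.10% were called lower (912). Of the 6 wall unigenes 4 were higher and 2 lower, counts that the way they were picked fixes. The median log2 ratio was -0.03 over the 23264 unigenes with no fewer than 50 fragments in each library. In whole callus, fewer cells of a type and less RNA per cell cannot be told apart.

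The extensin-like unigene CL3965.Contig1 was the most abundant of the 6 in both libraries and the one with the widest gap between them in fragments. It had 547 fragments in the Se-treated library, against 6505 in the Control library. These are 64.7 FPKM in the Se-treated library (59.4 to 70.4) and 768 FPKM in the Control library (750 to 787). The level was 11.9-fold lower in Se-treated callus, a log2 ratio of -3.57 (-3.70 to -3.44). By FPKM the unigene ranked 2284 of all unigenes in the Se-treated library and 72 in the Control library. Among the 1460 unigenes with at least 100 FPKM in the Control library, whose median log2 ratio was -0.25, none had a lower ratio. A place far down this order follows from how the unigene was picked.

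The other contigs of the extensin-like cluster, which were not picked by name, were lower as well. A cluster gathers contigs of similar sequence, such as splice forms, alleles or close family members, and its contigs can share reads. CL3965.Contig3, of 243 nt, had 132 fragments in the Se-treated library and 1457 in the Control library, a log2 ratio of -3.46 (-3.73 to -3.20). It stood next to CL3965.Contig1 in the order of ratios among those 1460 abundant unigenes. CL3965.Contig2, of 812 nt, had 844 and 2820 fragments in the Se-treated and the Control library, which is 62.2 and 208 FPKM. Its log2 ratio of -1.74 (-1.85 to -1.63) lies just outside the threshold, and its interval does not meet those of the other contigs. Contig2 thus held 55.4% of the cluster's fragments in the Se-treated library (52.9 to 57.9) but 26.2% in the Control library (25.3 to 27.0). Contig1 held 35.9% in the Se-treated library and 60.3% in the Control library. Summed over the 3 contigs there were 1523 fragments in the Se-treated library and 10782 in the Control library, 0.00912% and 0.0644% of each library. The cluster as a whole was 7.07-fold lower (log2 ratio -2.82, -2.90 to -2.74).

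**Figure D1:**
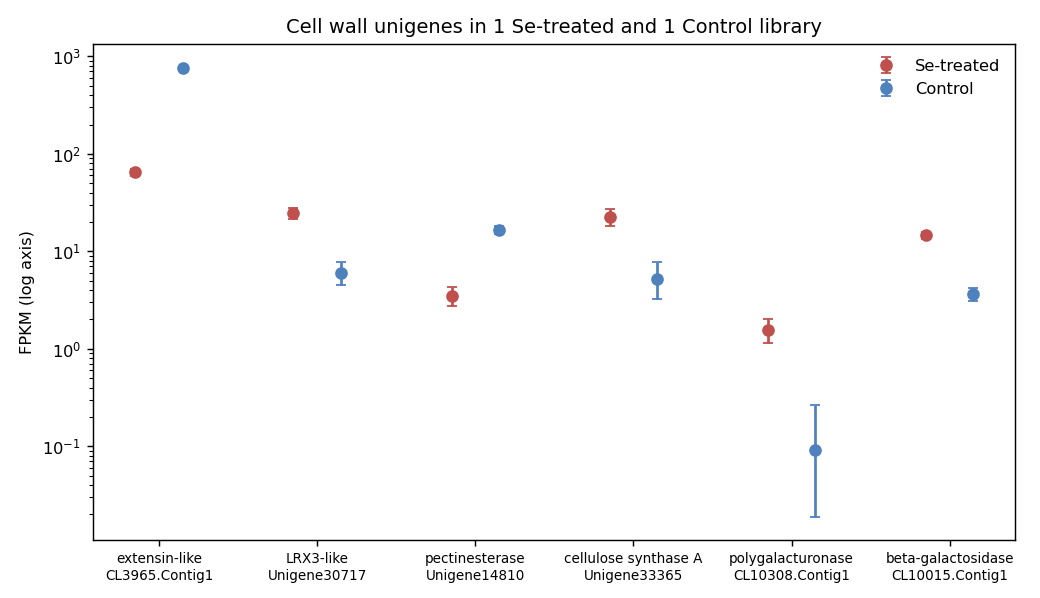
FPKM of the 6 cell wall unigenes on a log axis, with the Se-treated library (red) left of the Control library (blue) for each unigene. Points are the 1 value per library and bars are exact 95% Poisson intervals, which cover counting error only. The extensin-like unigene stands at 64.7 and 768 FPKM and the polygalacturonase at 1.54 and 0.0906 FPKM, in that order of libraries.

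The unigene matched to leucine-rich repeat extensin-like protein 3 of Arabidopsis thaliana (Unigene30717) went the other way. In Arabidopsis, proteins of this family carry a leucine-rich repeat domain beside an extensin domain, are bound to the wall and act in wall assembly and cell growth. Unigene30717, of 543 nt, had 223 fragments in the Se-treated library and 54 in the Control library. That is 24.6 FPKM in Se-treated callus (21.5 to 28.0) and 5.94 FPKM in Control callus (4.47 to 7.76). The level was 4.14-fold higher, a log2 ratio of 2.05 (1.61 to 2.51). Of the 23341 unigenes within 2-fold of its Control level, 180 had a ratio at least as high. Such a place follows from how the 6 were picked. In the direction of each, the like share was between 0.382% and 1.07% for all 6. Thus the 2 extensin-type unigenes differed in opposite directions, and their levels lay closer together in the Se-treated library than in the Control library. The closer levels go with the more abundant one being lower and the other higher, and both were picked for differing between the libraries.

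Cellulose synthase A (Unigene33365), named for a partial sequence of Camellia oleifera, was higher in Se-treated callus. This unigene is only 256 nt long, with 12.6% of the table shorter than it, so it covers a small part of a cellulose synthase transcript. It had 96 fragments in the Se-treated library, against 22 in the Control library. Its level was 22.5 FPKM in the Se-treated library (18.2 to 27.4) and 5.14 FPKM in the Control library (3.22 to 7.78). The log2 ratio was 2.13 (1.45 to 2.87), which is 4.37-fold. The level and the ratio of this unigene and of Unigene30717 had overlapping counting intervals in both libraries.

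The pectinesterase (Unigene14810), which takes methyl groups off pectin, was lower in Se-treated callus. It had 86 fragments in the Se-treated library and 416 in the Control library over 1491 nt. The level was 3.45 FPKM in the Se-treated library (2.76 to 4.27), against 16.7 FPKM in the Control library (15.1 to 18.4). It was 4.83-fold lower, with a log2 ratio of -2.27 (-2.62 to -1.93). Unigene14810 lies outside the clusters, so it has no similar contig in the table with which reads were grouped.

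The polygalacturonase unigene CL10308.Contig1, an enzyme of pectin backbone cleavage, was the scarcest of the 6 and had the highest ratio. It had 51 fragments in the Se-treated library and 3 in the Control library, at a length of 1980 nt. The level was 1.54 FPKM in the Se-treated library (1.15 to 2.03) and 0.0906 FPKM in the Control library (0.0187 to 0.265). The ratio was 17.0, with a counting interval of 5.51 to 85.3, and the log2 ratio 4.09 (2.46 to 6.41). With 1 FPKM added to both libraries the log2 ratio was 1.22.

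The polygalacturonase cluster of 4 contigs did not move as a whole in the way CL10308.Contig1 did. CL10308.Contig2, of the same name, had 21 fragments in the Se-treated library and 0 in the Control library. It was 7.01-fold higher when the floor of 3 fragments stands in for the Control count. The lower end of its counting interval was 5.22-fold. CL10308.Contig3 had 52 fragments in the Se-treated library and 47 in the Control library, a log2 ratio of 0.15 (-0.45 to 0.75). CL10308.Contig4 was on the other side, with 30 and 66 fragments in the Se-treated and the Control library (-1.14, -1.81 to -0.49), and it was not called. Contigs 1 and 2, put together after their values were seen, made up 46.8% of the cluster's 154 fragments in the Se-treated library (38.7 to 55.0) but 2.59% of its 116 fragments in the Control library (0.537 to 7.37). The sum of the cluster differed 1.33-fold, a log2 ratio of 0.41 (0.05 to 0.77). So in the counted fragments the 2 libraries differed more in the split between contigs than in the total of the cluster. The study's coverage tables list more reads that map to several contigs than to a single contig for all 4 contigs in both libraries. The paper gives its mapping settings but does not state how such reads entered the fragment counts. The shares and the sum above therefore describe counted fragments only, which may leave out many reads of the cluster. The shares and sums of the extensin-like and the beta-galactosidase cluster are likewise of counted fragments only.

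**Figure D2:**
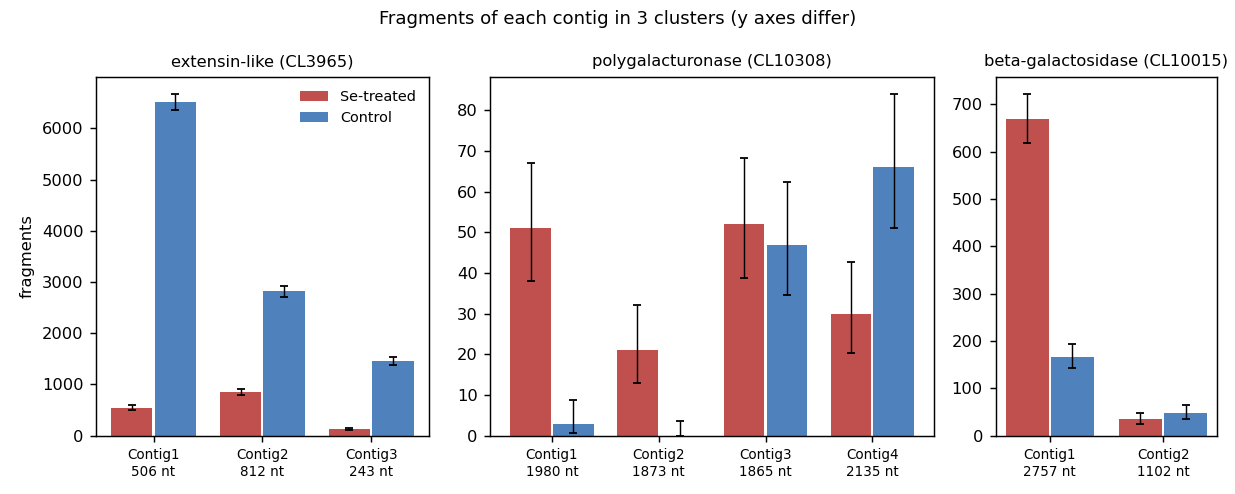
Fragments of every contig in the clusters of the extensin-like protein, the polygalacturonase and the beta-galactosidase, Se-treated (red) left of Control (blue), with exact 95% Poisson intervals and the contig length in nt. All 3 extensin-like contigs are lower in the Se-treated library, whereas polygalacturonase Contig1 has 51 fragments against 3 and Contig4 30 against 66.

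The beta-galactosidase (CL10015.Contig1), an enzyme that removes galactose from wall polysaccharides, was the longest of the 6 unigenes with 2757 nt. It had 669 fragments in the Se-treated library and 167 in the Control library. The level was 14.5 FPKM in the Se-treated library (13.4 to 15.7), against 3.62 FPKM in the Control library (3.09 to 4.21). The log2 ratio of 2.00 (1.76 to 2.26), a 4.01-fold difference, is of the 6 the one nearest to the threshold from inside. The other contig of the cluster, CL10015.Contig2, had 35 fragments in the Se-treated library and 49 in the Control library (-0.48, -1.15 to 0.17). Contig2 thus held 4.97% of the cluster's fragments in the Se-treated library (3.49 to 6.85) and 22.7% in the Control library (17.3 to 28.9), and Contig1 the rest. Over both contigs the log2 ratio was 1.71 (1.49 to 1.93), from 704 fragments in the Se-treated library and 216 in the Control library.

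Across the 3 clusters there were 6 contigs other than those picked. At a log2 ratio of 1 in size, where 5.50% of all unigenes were called higher and 4.65% lower, 1 of these 6 was called higher, 2 were called lower and 3 were not called. Contigs that part from their cluster were not rare in the table. Of 713 contigs called at a log2 ratio of 2 in clusters of at least 2 contigs, 268 (37.6%) shared their cluster with a contig of the opposite sign, and in 167 (23.4%) the whole cluster also reached 2 in the same direction. The extensin-like CL3965.Contig1 was among those 167, and the polygalacturonase CL10308.Contig1 and the beta-galactosidase CL10015.Contig1 were not.

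The 6 unigenes spread over a wider range of levels in the Control library. From highest to lowest the order in Se-treated callus was extensin-like protein, leucine-rich repeat extensin-like protein 3, cellulose synthase A, beta-galactosidase, pectinesterase and polygalacturonase, of which only the second and the third had overlapping counting intervals. In Control callus the pectinesterase stood second, and the intervals of cellulose synthase A overlapped with those of its neighbours on either side. The highest level was 42.0 times the lowest in Se-treated callus, and 8485 times in Control callus. The Control figure is loose, because its lowest level is the 3 fragments of the polygalacturonase (0.0187 to 0.265 FPKM). It also sets apart unigenes that were picked for differing between the libraries, in opposite directions. By log2 ratio, the intervals of all 4 higher unigenes reached into one another except those of the polygalacturonase and the beta-galactosidase, while those of the 2 lower ones did not meet.

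**Figure D3:**
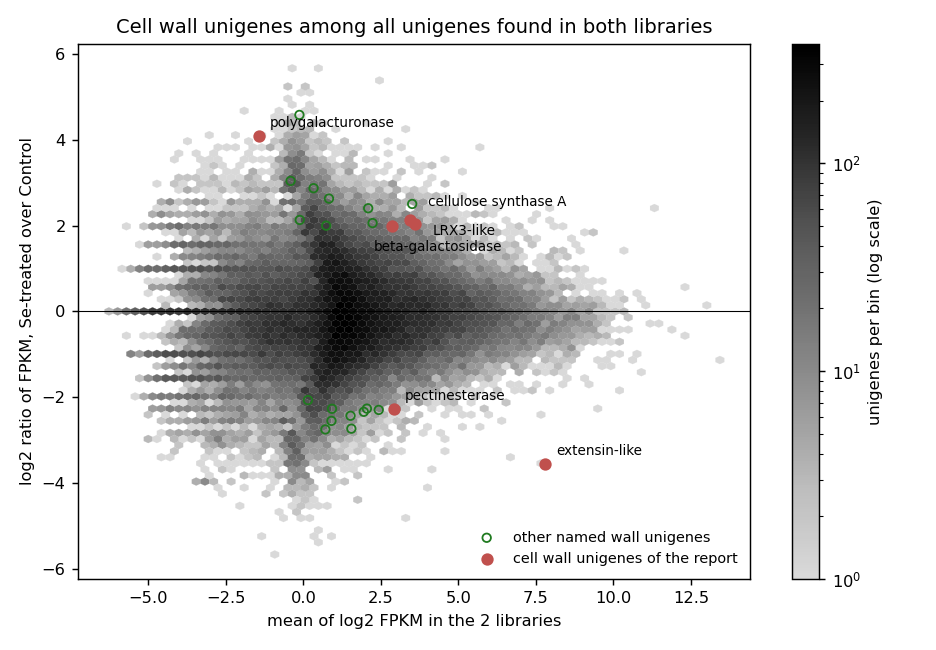
Log2 ratio of FPKM (Se-treated over Control) against the mean log2 FPKM of both libraries. Grey hexagons count the unigenes found in both libraries on a log scale, red points are the 6 cell wall unigenes and open green circles the other wall unigenes by name, without CL10308.Contig2, which had 0 Control fragments. The extensin-like unigene (-3.57) lies below the main grey field at high level, with its cluster mate CL3965.Contig3 (-3.46) as a single grey hexagon beside it.

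Other genes of the wall were taken by name from the same list of called unigenes, with those names and ratios known, so every one of them passed the threshold and wall genes that did not pass carry no name here. Together with the 6 there are 25 unigenes, of which 14 were higher in Se-treated callus and 11 lower. Among all 2223 called unigenes 59.0% were higher and 41.0% lower. The paper reports names for only part of these, and those without a name could not enter the list. The split of the 25 is therefore not set against that of the 2223. The counts by enzyme group below rest on so few picked unigenes that no direction of a group is read from them. The median log2 ratio of the 25 was 2.00 and that of all unigenes -0.09, but a list picked at a threshold of 2 has no values near 0, so this says nothing about wall genes. Of the 25, 7 had fewer than 50 fragments over both libraries. With 1 FPKM added to both libraries 4 of the 25 stayed at a log2 ratio of 2 or more in size. When the contigs of each cluster were summed 16 stayed. Of the 25, however, 14 lie outside clusters and could not change in that setting, so only the 11 in clusters could.

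The named unigenes of wall synthesis include 4 for cellulose and related glucans, of which 3 were higher, cellulose synthase A among them, and 3 for pectin, which were higher. Callose synthase 11-like (Unigene20860), an enzyme of the glucan laid down at cell plates and wounds, had 175 fragments in the Se-treated library and 33 in the Control library (log2 ratio 2.41, 1.87 to 2.99). Cellulose synthase-like protein G2-like (CL8886.Contig2), of a family related to cellulose synthases, had 99 and 12 (3.05), and its cluster 2.44. UDP-glucose 6-dehydrogenase (Unigene918), which makes the UDP-glucuronate used for pectin and hemicellulose, had 108 fragments in the Se-treated library, against 19 in the Control library (2.51, 1.80 to 3.30). It is a short unigene of 238 nt. The pectin methyltransferase QUA2-like (Unigene39945) had only 31 fragments in the Se-treated library and 5 in the Control library (2.63, 1.26 to 4.35). A xylogalacturonan xylosyltransferase (CL6767.Contig1) had a log2 ratio of 2.14, but its cluster had 0.60. A COBRA-like protein 4-like (CL4515.Contig4), of a family that acts in cellulose deposition, was lower, with 6 and 40 fragments in the Se-treated and the Control library (-2.73), and its cluster had -0.84.

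The list names 6 pectinesterases, of which 4 were lower in Se-treated callus and 2 higher. In all they had 181 fragments in the Se-treated library and 588 in the Control library, of which Unigene14810 gave 86 in the Se-treated and 416 in the Control library. Next to it among the lower ones came Unigene31418, a pectinesterase with an inhibitor domain in its name, with 17 fragments in the Se-treated library and 92 in the Control library (log2 ratio -2.43, -3.27 to -1.68). Unigene33600 had 4 and 27 fragments (-2.75, -4.73 to -1.23). CL7045.Contig1 had -2.07, but its cluster -0.32. Pectinesterase 2-like was higher in 2 sparsely counted unigenes, Unigene39498 with 24 fragments in the Se-treated library and 1 in the Control library (4.59, 1.97 to 9.95), and CL5752.Contig2 with 40 and 10 (2.00, cluster 1.74). The polygalacturonase inhibiting protein (CL3905.Contig2), which binds and blocks polygalacturonases of attacking microbes, was lower, with 27 fragments in the Se-treated library and 137 in the Control library (-2.34, -2.99 to -1.74). Its cluster had -1.37.

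Of the other wall glycosidases, the beta-D-xylosidase 2-like enzyme (Unigene26488), which acts on xylose-containing polysaccharides, was lower with 51 fragments in the Se-treated library and 251 in the Control library (log2 ratio -2.30, -2.76 to -1.86). The glucan 1,3-beta-glucosidase A-like unigene (Unigene11488) was higher with 267 and 64 (2.06, 1.66 to 2.48). Both wall-associated receptor kinases, which bind pectin and signal its state to the cell, were lower. Unigene33215 had 8 fragments in the Se-treated library and 47 in the Control library (-2.55), and CL2336.Contig2 had 11 and 53 (-2.27), with -0.45 for its cluster. A cell wall invertase (Unigene33574), which splits sucrose outside the cell, had 6 and 29 (-2.27, -3.83 to -0.98). A pistil-specific extensin-like unigene (Unigene39550) was higher with 22 and 3 fragments (2.88, 1.14 to 5.26), unlike the extensin-like cluster CL3965. Over the 10 clusters that hold named wall unigenes, 1 had a log2 ratio of at least 2, 1 of -2 or less, and 5 were under 1 in size.

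Outside the clusters, a unigene's number in the assembly went with its direction, and this touches the wall unigenes. Among 6970 unigenes with numbers from 30000 to below 37000, those higher in Se-treated callus made up 11.1%. The share was 89.7% for the 7446 with numbers of 38000 or more, and 46.2% for the 29954 below 30000. Of 9 named wall unigenes numbered 30000 or more, 7 had the direction of most unigenes in their window of 1000 numbers. The other 2 were Unigene30717 and Unigene33365. In the window of Unigene30717, 28.1% of 989 unigenes were higher in the Se-treated library, and in that of Unigene33365 8.41% of 999. The pectinesterase Unigene14810 lies among the low numbers, where 42.3% of 1000 unigenes were higher. The part of the numbering in these ratios was not tested.

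**Figure D4:**
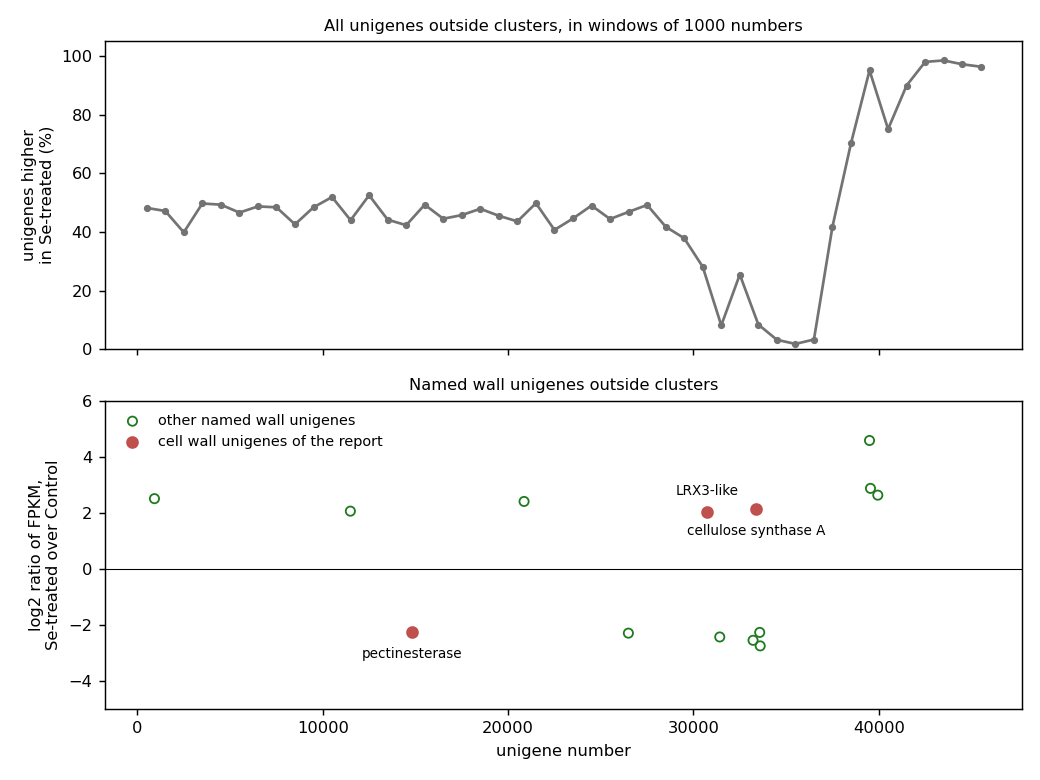
Upper panel, share of unigenes outside clusters that were higher in the Se-treated library, in windows of 1000 unigene numbers. Lower panel, log2 ratio of each named wall unigene outside clusters at its number, where Unigene30717 (2.05) and Unigene33365 (2.13) lie above 0 in windows with 28.1% and 8.41% of unigenes higher.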

How the data were processed

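RNA of 1 Se-treated and 1 Control callus library was sequenced as read pairs. The authors filtered the reads, assembled unigenes with Trinity, TGICL and Phrap, named them by Blast and mapped the reads with SOAP. They deposited fragment counts per unigene, not normalized, which sum to 16701483 (Se-treated) and 16729524 (Control). The deposited P-values and FDR were not used, and the deposited FPKM served only to check the FPKM computed here. In the deposited table the decimal mark is missing from every FPKM of 1 or more, so the stored values do not share a scale. All 82566 values of either library equal the FPKM computed here within 0.00006 FPKM, as stored or divided by 10000. The deposited P-value and FDR columns, treated likewise as a score, hold the authors' own comparison.

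FPKM was computed from fragments, lengths and column totals, and the log2 ratio with an FPKM of 0 replaced by 0.001. The Audic-Claverie P-value was adjusted by Benjamini-Hochberg over all unigenes. Cluster ratios use fragments summed over the contigs of 1 CL number. The floor is 3 fragments per library. Simulated libraries with known changes, drawn with counting error only, were used to check both test and intervals. They held no spread between cultures, so they cannot show how the calls would fare with such spread. The wall unigenes and the alternatives were chosen with earlier results of these data known. By rule the text names the 6, every contig of their clusters and the wall list of 25. No reference sequence was used, so no sequence is shown. The software was Python 3.11.15 with scipy 1.17.1, pandas 2.3.3, numpy 2.4.6 and, for plots, matplotlib 3.10.9. Alternatives were 0.1 or 1 FPKM added, recentring, summed clusters, filters on fragments, an exact binomial test and an assumed spread between cultures (a normal test of the log2 ratio with 0.5 fragments added). No correction for the numbering of unigenes was made.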

Additional observations from a re-analysis of the deposited data

How the results depend on the processing

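With 1 library per condition no replicate could be left out, and no paired analysis was possible because each condition has 1 library. No log2 ratio of the 6 wall unigenes changed its sign, and recentring or 0.1 FPKM added to both libraries left all of them within their counting intervals. Of 73 recomputed values 51 stayed within the counting interval or, for counts, within 1.5 times. With 1 FPKM added, the polygalacturonase CL10308.Contig1 had 1.22 and the beta-galactosidase CL10015.Contig1 1.75. Summed over their clusters, CL3965 had -2.82, CL10308 0.41 and CL10015 1.71, and as the mean of the contig log2 ratios -2.92, 3.12 and 0.76. The mean of CL10308 includes a contig with 0 Control fragments, whose ratio is set by the value put in for 0.

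At a log2 ratio of 2, 752 unigenes were called higher and 435 lower among those with at least 50 fragments, 402 and 249 with 1 FPKM added, and 371 and 172 when a spread between cultures was assumed (coefficient of variation 0.2). At a ratio of 1 the assumed 0.2 gave 405 and 183. With an assumed 0.4 there were 0 and 0 calls at either ratio. Of the 6 wall unigenes, 1 was still called at a ratio of 2 with 1 FPKM added (CL3965.Contig1), 3 with the assumed 0.2 (CL3965.Contig1, Unigene14810 and CL10015.Contig1) and 0 with the assumed 0.4. Without unigenes numbered 30000 or more, an alternative chosen after seeing the data, the named wall unigenes were 9 higher and 7 lower.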
